A study of Mus musculus with 31 samples.

Results

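The Nduf genes encode the nuclear subunits of mitochondrial complex I and a family of factors, named Ndufaf, that help to build it. Members were taken by symbol and type alone: every protein-coding gene whose symbol in the GENCODE annotation of the mouse genome starts with Nduf and that both deposited count tables hold. That gave 46 of the 51 Nduf genes in the annotation, among 35275 gene identifiers in the table of the insulin experiment and 54532 in the table of the 3SA experiment. By the role of the protein, 7 are core subunits, 29 are accessory subunits and 8 are assembly factors. Ndufa4, whose protein is now placed in complex IV, and its paralogue Ndufa4l2 were counted apart. The 5 Nduf genes left out are 4 processed pseudogenes and Ndufb1-ps, which the annotation lists as a non-coding RNA.

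Complex I takes electrons from NADH, passes them along a flavin and a chain of iron-sulfur clusters to ubiquinone, and pumps protons out of the matrix. The core subunits carry these reactions and have counterparts in bacteria, some of them made from mitochondrial genes; the accessory subunits surround and steady the core, and the assembly factors act on intermediates and leave the finished enzyme. ERRα is an orphan nuclear receptor that works with the coactivators of the PGC-1 family on genes of oxidative metabolism, in tissues such as liver and skeletal muscle.

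RNA was sequenced from whole liver and skeletal muscle of male C57BL/6N mice aged 2 to 3 months and kept on a standard diet, 31 samples in all. In the insulin experiment, wild-type mice (WT) and mice that lack ERRα (KO) were fasted for 12 h, given saline or insulin at 1 unit per kg by intraperitoneal injection, and their livers were collected 4 h later. In the 3SA experiment, livers and muscles came from WT littermates and from ERRα3SA mice, in which 3 serines of ERRα are replaced by alanine; the labels give these mice no treatment. The KO is constitutive and the 3SA change is a knock-in, so both are present in every tissue and throughout life. Muscle here is gastrocnemius with soleus, a mix of fibre types.

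Each group held 4 mice, except KO livers given insulin, which held 3 (replicates 1, 2 and 4). Total counts per sample were 37508292 to 41740965 in WT livers given saline, 35871419 to 40590962 in WT livers given insulin, 39250853 to 48317108 in KO livers given saline and 38156804 to 40067603 in KO livers given insulin. They were 23426588 to 33412022 in livers of WT littermates, 20481405 to 22836176 in 3SA livers, 23561675 to 25831378 in muscles of WT littermates and 22241960 to 28835765 in 3SA muscles. Levels are CPM (counts scaled to a common library total) after TMM scaling, computed over the livers of the insulin experiment, the livers of the 3SA experiment and the muscles in turn, so a CPM is compared only within such a set. All 46 members passed the filter on low counts in every comparison.

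Some libraries stood apart from their groups. In 3SA muscle replicate 1, mitochondrially encoded genes took 19.3% of the counts against 9.15 to 9.85% in the other 3SA muscles, and 16984 genes were detected against 20237 to 20878. The Nduf members together took 0.474% of its counts, where the other 3SA muscles gave 0.732 to 0.764%. In WT liver insulin replicate 2, mitochondrially encoded genes took 1.88% against 3.88 to 4.17%, 14507 genes were detected against 16349 to 16591, and the members took 0.238% against 0.188 to 0.212%. The number of members called is given with and without each of these. On 1 of the shares 2 more stood apart: members took 0.246% of the counts in 3SA liver replicate 4 against 0.309 to 0.313%, and mitochondrially encoded genes 3.91% in KO liver saline replicate 3 against 3.16 to 3.21%.

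Counting limits a few members. At least 10% of the transcript is overlapped by exons of another gene for 9 members, the most for Ndufb2 (50.3%), and 10 members have a stretch of at least 100 bases with at least 95% identity elsewhere in the annotated transcripts. For 3 of them such a copy covers most of the transcript: Ndufs3 (75.7%, the pseudogene Gm12251), Ndufs6 (61.3%, Ndufs6b) and Ndufs5 (60.8%, BC002163). Reads from such stretches may have been left uncounted or given to the other gene.

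The labels were checked against the data. Esrra, which encodes ERRα, stood at 32.3, 51.3, 42.7 and 40.5 CPM in WT livers given saline and at 53.7, 96.5, 56.1 and 58.99 CPM in WT livers given insulin. In KO livers it was 1.63, 0.703, 1.15 and 1.04 CPM with saline and 0.833, 0.576 and 0.299 CPM with insulin. Every KO liver was far below every WT liver, with log2 fold changes of −5.20 ± 0.243 (SE; adjusted p = 2.58e-06) with saline and −6.86 ± 0.3695 (adjusted p = 3.55e-05) with insulin. Livers of WT littermates had 26.2, 25.7, 26.8 and 28.01 CPM of Esrra, and 3SA livers had 27.96, 24.1, 20.02 and 18.4 CPM. In muscle, WT littermates had 94.2, 86.1, 69.7 and 81.6 CPM and 3SA mice 25.8, 139.6, 134 and 103 CPM, so 3SA muscle replicate 1 lay under every WT muscle and the other 3SA muscles above them. The 3SA change leaves the transcript in place, and with all samples kept Esrra was called in neither tissue: its log2 fold change was −0.24 ± 0.121 in liver (unadjusted p = 0.07796, adjusted p = 0.713) and 0.28 ± 0.412 in muscle (unadjusted p = 0.514, adjusted p = 0.9996). As for tissue, 8 hepatocyte markers, Alb the most abundant, summed to 68182 to 123479 CPM over the livers and 8.58 to 19.4 CPM over the muscles. The 7 markers of muscle fibre, with Acta1 on top, summed to 77365 to 117268 CPM over the muscles and 0.348 to 77.1 CPM over the livers, the highest liver being WT liver insulin replicate 3.

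Among core, accessory and assembly genes, the median level per kilobase of transcript was highest for core and lowest for assembly genes in every group. In 3 single livers the accessory median passed the core median. These were WT liver insulin replicates 1 (42.9 against 42.1 CPM per kb) and 4 (49.3 against 47.7) and KO liver insulin replicate 1 (36.4 against 36.2). In WT liver insulin replicate 2 core genes were at 71.0 and accessory genes at 47.6 CPM per kb. In WT livers given saline the median over the 7 core genes was 48.7 CPM per kb, over the 29 accessory genes 36.2 and over the 8 assembly genes 6.72. In livers of WT littermates these medians were 91.3, 73.0 and 10.8 CPM per kb, and in muscles of WT littermates 169.5, 132.4 and 13.6. The sets of samples were scaled apart, so levels per kb here order genes within a group and do not compare groups across sets. Ndufa4 had the highest level per kb of all members in each of the 8 groups, from 152 in KO livers given insulin to 602 in 3SA muscles. Among accessory genes the lowest per kb was Ndufb2, with 2.07 in WT livers given saline, 11.99 in livers of WT littermates and 19.3 in muscles of WT littermates. Many of its bases cannot be counted free of its neighbours. Ndufa4l2 was lowest of all members in each liver group, at 0.545 to 1.51 CPM per kb. These levels depend on which transcript sets the length.

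**Figure D1:**
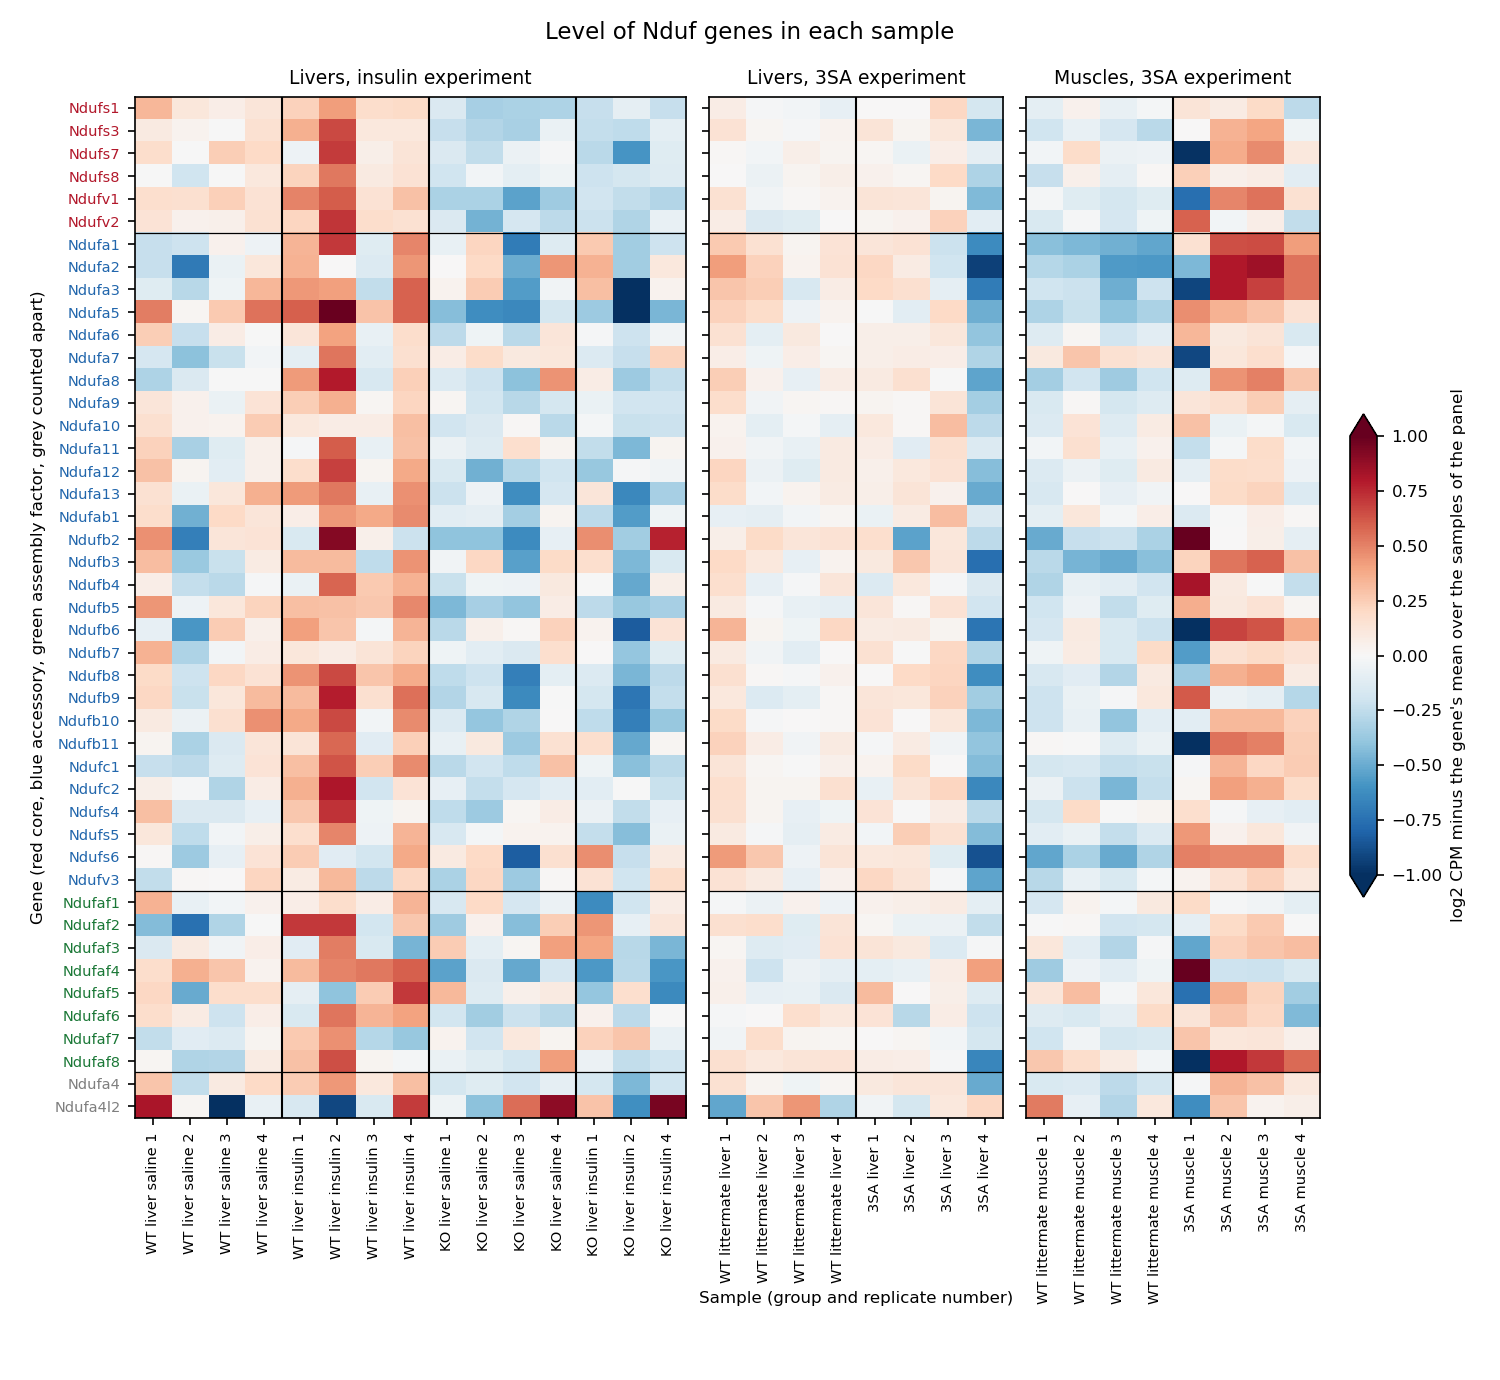
Level of 45 of the 46 members in each of the 31 samples, as log2 CPM (0.1 CPM added) minus the gene's mean over the samples of its panel, on a colour scale from −1 to 1; gene labels are red for core, blue for accessory, green for assembly and grey for the 2 genes counted apart. WT liver insulin replicate 2 is mostly above the mean of the insulin livers, 3SA liver replicate 4 is mostly below that of its panel, and 3SA muscle replicate 1 mixes high and low members.

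The heat map of members shows how the classes move over samples, and sums of CPM put numbers on it. Core genes summed to 584, 533, 560.4 and 572 CPM in WT livers given saline and to 647, 829.9, 581 and 604 CPM in WT livers given insulin. In KO livers the core sum was 447, 425, 432 and 451 CPM with saline and 455, 439 and 465 CPM with insulin, below every WT liver. Accessory genes summed to 1028, 834, 953 and 1063 CPM in WT livers given saline, 1117, 1333, 959.7 and 1202 CPM in WT livers given insulin, 851, 884, 767 and 964 CPM in KO livers given saline and 925, 711 and 867 CPM in KO livers given insulin, so here WT and KO livers given saline overlapped. Assembly genes summed to 80.5, 76.6, 75.7 and 78.2 CPM in WT livers and 66.8, 72.2, 64.9 and 77.7 CPM in KO livers given saline, again with overlap. With insulin they summed to 87.6, 104, 85.6 and 91.7 CPM in WT and 68.3, 68.1 and 65.8 CPM in KO livers, where all KO livers were below all WT livers.

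Promoters are shown for members that fell together in KO livers or that hold a motif of ERRα, since the receptor binds DNA. Windows from RefSeq (build GRCm38.p6), from 250 bases before to 50 after the start of transcription, were found for 40 of the 46 members; Ndufs1 was among the 6 without. Motifs were searched on both strands. The core letters of an ERR element, AAGGTCA, occurred in 3 of 40 members (7.5%), against 5.38% of the 27025 genes with a window and 4.19% of the 10967 of them tested in the insulin livers. Its longer form TNAAGGTCA, which contains AAGGTCA, occurred in 1 member (2.5%) against 1.43% of all genes and 1.01% of those tested. GCGCATGCG, a motif of NRF1 that overlaps itself on the other strand, occurred in Ndufa8, Ndufa11, Ndufaf4 and Ndufaf5 (10% of members, against 1.95% of all genes and 3.83% of those tested). AAGATGGC, a motif of YY1, occurred in 8 members (20%, against 3.19% of all genes and 4.95% of those tested), in each on the strand of the gene and 10 to 38 bases after the start. CCGGAAGT, a motif of ETS factors such as GABP, occurred in Ndufs3 alone (2.5% of members, against 4.31% of all genes and 8.44% of those tested). The 95% intervals of the member shares were 1.57 to 20.4% for AAGGTCA and 0.0633 to 13.2% for TNAAGGTCA and for CCGGAAGT. They were 2.79 to 23.7% for GCGCATGCG and 9.05 to 35.6% for AAGATGGC, and enrichment was not tested. Shown here are the 250 bases before the RefSeq start of the 3 members with AAGGTCA and of Ndufaf4 and Ndufv1, an assembly gene and a core gene that fell in KO livers. They lie at chr6:39592315-39592564 on the plus strand (Ndufb2), chr16:37654369-37654618 on the minus strand (Ndufb4), chr4:123718187-123718436 on the minus strand (Ndufs5), chr4:24897833-24898082 on the plus strand (Ndufaf4) and chr19:4012756-4013005 on the minus strand (Ndufv1). GENCODE starts Ndufb4, Ndufs5 and Ndufv1 further upstream, at bases 37654453, 123718202 and 4012806, so the end of those windows lies inside the gene as it draws it, and so does the ERR motif of Ndufb4. Capitals mark the ERR letters in the Ndufb and Ndufs sequences (TNAAGGTCA in Ndufb4, and TGACCTT, which is AAGGTCA on the other strand, in Ndufs5) and both overlapping matches to the NRF1 motif in Ndufaf4; Ndufv1 holds none of these motifs. A match is a description of letters only.
Ndufb2: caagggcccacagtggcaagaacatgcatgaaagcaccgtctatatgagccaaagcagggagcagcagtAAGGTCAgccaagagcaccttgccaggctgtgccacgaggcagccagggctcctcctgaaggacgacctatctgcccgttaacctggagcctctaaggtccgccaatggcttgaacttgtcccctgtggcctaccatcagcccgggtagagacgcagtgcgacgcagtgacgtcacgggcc
Ndufb4: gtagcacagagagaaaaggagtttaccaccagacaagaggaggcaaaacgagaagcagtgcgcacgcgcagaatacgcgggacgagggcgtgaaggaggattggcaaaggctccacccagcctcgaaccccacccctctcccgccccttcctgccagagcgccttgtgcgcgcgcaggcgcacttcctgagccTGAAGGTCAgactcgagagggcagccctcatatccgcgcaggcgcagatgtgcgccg
Ndufs5: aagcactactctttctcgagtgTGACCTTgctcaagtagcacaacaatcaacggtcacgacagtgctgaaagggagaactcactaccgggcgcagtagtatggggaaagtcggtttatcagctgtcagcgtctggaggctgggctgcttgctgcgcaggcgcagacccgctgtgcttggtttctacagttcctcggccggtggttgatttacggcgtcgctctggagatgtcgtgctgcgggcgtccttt
Ndufaf4: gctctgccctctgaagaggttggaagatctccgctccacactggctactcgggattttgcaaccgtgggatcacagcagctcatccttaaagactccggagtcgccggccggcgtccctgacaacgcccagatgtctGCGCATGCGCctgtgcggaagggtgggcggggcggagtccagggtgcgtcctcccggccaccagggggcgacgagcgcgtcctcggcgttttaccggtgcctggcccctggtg
Ndufv1: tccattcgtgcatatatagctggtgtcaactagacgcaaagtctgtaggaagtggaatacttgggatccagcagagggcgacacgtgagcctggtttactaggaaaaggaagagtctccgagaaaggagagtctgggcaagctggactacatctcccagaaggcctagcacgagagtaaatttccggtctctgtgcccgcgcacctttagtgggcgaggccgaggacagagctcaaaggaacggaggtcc

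The livers of saline-treated mice ask how complex I genes differ without ERRα in the fasted state. Core subunit genes were lower in KO livers: 6 of 7 fell, with a median log2 fold change over the 7 of −0.29. Of the accessory genes 8 of 29 fell and 1 rose (median −0.10), and of the assembly genes 1 of 8 fell (median 0.08). A gene was called when edgeR's quasi-likelihood test gave an unadjusted p under 0.05 and the fold change was at least 1.2. Over all 46 members 1 was called higher and 15 lower, where 5.98% of the 13481 genes tested were called higher and 5.30% lower; the median over members was −0.11 and over all genes 0.0037. No member had an adjusted p under 0.05 by edgeR, where 0.0816% of all genes did; 16 had an unadjusted p under 0.05, and DESeq2 gave 4 members an adjusted p under 0.05, as edgeR did 1 without the filter on low counts. KO and WT livers did not overlap for 11 members, 6 of them core, and for 956 of all genes tested.

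Among the core genes, Ndufv1, which binds NADH and the flavin, stood at 125, 124, 131 and 123 CPM in WT livers given saline and at 89.4, 89.3, 76.9 and 87.2 CPM in KO livers given saline. Each KO liver was lower than each WT liver by a wide gap. Ndufv1 fell with a log2 fold change of −0.55 ± 0.092 (SE, n = 4 per group; unadjusted p = 8.08e-05, adjusted p = 0.0681). Ndufs1, which carries iron-sulfur clusters of the same NADH-oxidising module, was 105, 89.8, 86.8 and 90.2 CPM in WT and 74.8, 65.9, 66.4 and 66.9 CPM in KO livers. Its highest KO liver, replicate 1, was still under the lowest WT liver, and its log2 fold change was −0.44 ± 0.0992 (unadjusted p = 0.000989, adjusted p = 0.161). Ndufv2, the partner of Ndufv1 in that module, fell too, with a log2 fold change of −0.35, as did Ndufs3 and Ndufs7 on the way to ubiquinone, with −0.29 and −0.27. Ndufs8, an iron-sulfur subunit of the same path, was the exception: it was 34.1, 29.7, 33.98 and 36.8 CPM in WT and 29.8, 33.5, 31.8 and 33.03 CPM in KO livers. Those groups overlapped, and its log2 fold change was −0.07 ± 0.0992 (unadjusted p = 0.492, adjusted p = 0.8296).

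The accessory gene with the lowest fold was Ndufa5, which encodes a subunit of the matrix arm, with 28.5, 20.2, 23.9 and 29.1 CPM in WT livers given saline and 14.8, 12.9, 12.7 and 17.6 CPM in KO livers. The lowest WT liver, replicate 2, lay above the highest KO liver. Ndufa5 fell with a log2 fold change of −0.81 ± 0.151 (unadjusted p = 0.000222, adjusted p = 0.105). The other accessory genes called lower were Ndufa10, Ndufa12, Ndufa13, Ndufb5, Ndufb8, Ndufb9 and Ndufb10. None of the 3 members with AAGGTCA in the promoter window was among the members called lower, and 12 of the 37 other members with a window were. Ndufa7, an accessory gene of the matrix arm, went the other way, at 28.9, 24.4, 27.8 and 31.8 CPM in WT and 34.1, 36.9, 34.7 and 35.2 CPM in KO livers. All KO livers were above all WT livers, and Ndufa7 rose with a log2 fold change of 0.32 ± 0.103 (unadjusted p = 0.00989, adjusted p = 0.255). Without WT liver saline replicate 2 it was 0.26 (unadjusted p = 0.0299), under the fold of 1.2.

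Ndufaf4, a factor that acts early on the module next to ubiquinone, was the assembly gene called lower. It stood at 24.5, 27.7, 26.2 and 22.2 CPM in WT livers given saline and 14.9, 19.6, 15.2 and 19.2 CPM in KO livers, with every KO liver under every WT liver. Ndufaf4 fell with a log2 fold change of −0.55 ± 0.129 (unadjusted p = 0.00132, adjusted p = 0.177). The other 7 assembly genes, at log2 fold changes up to 0.26, were not called. Leaving out WT liver saline replicate 1 or 4 left 10 members called, 1 higher and 9 lower each time, 4 of the latter accessory genes. Of the 7 core genes 4 were called lower without WT liver saline replicate 1 or 4 or KO liver saline replicate 2. It was 5 without KO liver saline replicate 1 or 3 or WT liver saline replicate 3, and with all groups in 1 fit. With a library left out all 7 stayed below 0, and the core median ranged from −0.35 to −0.27. Without WT liver saline replicate 3, 2 assembly genes were called lower, and without KO liver saline replicate 3, 2 accessory genes were called higher. The median over members was −0.07 without WT liver saline replicate 1 and −0.16 without WT liver saline replicate 2. The accessory median ranged from −0.16 to −0.03 with a library left out, and the assembly median, 0.145 at most, was −0.0046 without WT liver saline replicate 2. In whole tissue, fewer cells of a type and less RNA per cell cannot be told apart. Macrophage markers moved in the same comparison: 2 of 5 fell (Adgre1 and Csf1r), none was at 0, Clec4f was the most abundant, and the 5 summed to 116, 235, 154 and 167 CPM in WT and 122, 121, 121 and 139 CPM in KO livers. Of 6 endothelial or stellate markers 2 fell (Kdr and Col1a1), while Dcn, the most abundant, went up without a call (0.24, unadjusted p = 0.038) and Pecam1 was at 0.12, with none at 0 and sums of 227, 331, 274 and 278 CPM in WT livers and 258, 271, 257 and 262 CPM in KO livers. The red cell gene Alas2 also fell, 1 of 5 of its list, while Tat, 1 of 8 hepatocyte markers, and Atp2a2, 1 of 3 slow fibre markers tested, rose. The part of these cells in the result was not tested.

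Under insulin the same comparison asks how KO and WT livers differ once insulin has acted for 4 h. All 7 core genes fell in KO livers (median log2 fold change −0.54, from −0.65 to −0.44), 15 of 29 accessory genes fell (median −0.45), and so did 1 of 8 assembly genes (median −0.40) and Ndufa4. Together 0 members were called higher and 24 lower by edgeR (24 at an unadjusted p under 0.05, 23 called by DESeq2), where 4.57% of 13665 genes tested were called higher and 5.42% lower. The median over members was −0.45 and over all genes −0.02. By edgeR no member had an adjusted p under 0.05 (0.0585% of all genes did, and DESeq2 gave 9 members); the lowest was that of Ndufaf4. Other settings of edgeR gave such members: 6 with all groups of the experiment in 1 fit, 2 without the filter on low counts and 1 when scaled by library totals. KO and WT livers given insulin did not overlap for 23 members, and for 1690 of all genes.

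Ndufv1 was 157, 169, 123 and 137 CPM in WT livers given insulin and 97.2, 93.6 and 90.7 CPM in KO livers given insulin. Replicates 1 and 2 were the highest WT livers, and no KO liver reached the lowest, replicate 3. Ndufv1 fell with a log2 fold change of −0.65 ± 0.142 (SE, n = 4 and 3; unadjusted p = 0.000853, adjusted p = 0.166). Ndufs1 was 97.3, 110.4, 93.5 and 94.5 CPM in WT and 70.5, 77.7 and 70.7 CPM in KO livers, again with no overlap, and fell with a log2 fold change of −0.45 ± 0.122 (unadjusted p = 0.00394, adjusted p = 0.235). Ndufs8, not called under saline, was 39.7, 49.2, 36.4 and 37.7 CPM in WT and 29.5, 30.1 and 31.1 CPM in KO livers given insulin, where the groups did not overlap. Its log2 fold change was −0.44 ± 0.1399 (unadjusted p = 0.009997, adjusted p = 0.322).

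Among accessory genes Ndufa5 again had the lowest fold, with 30.2, 39.6, 24.3 and 30.1 CPM in WT and 15.5, 9.19 and 14.5 CPM in KO livers. The lowest sample of all was KO replicate 2, and Ndufa5 fell with a log2 fold change of −1.26 ± 0.222 (unadjusted p = 0.000181, adjusted p = 0.119). Ndufb9, a subunit of the far end of the membrane arm, was 106, 146, 94.7 and 124 CPM in WT and 75.1, 51.4 and 71.7 CPM in KO livers. WT replicate 2 was highest and KO replicate 2 lowest, and Ndufb9 fell with a log2 fold change of −0.84 ± 0.189 (unadjusted p = 0.00112, adjusted p = 0.167); 28.6% of its transcript is overlapped by Gm49356. Ndufb5, of the same arm, was 31.3, 31.1, 30.5 and 35.4 CPM in WT and 21.1, 19.5 and 20.1 CPM in KO livers. Its WT livers lay close together apart from a higher replicate 4, and its log2 fold change was −0.67 ± 0.124 (unadjusted p = 0.000241, adjusted p = 0.143). Ndufab1, the mitochondrial acyl carrier protein as well as a complex I subunit, was 52.6, 67.8, 65.3 and 69.8 CPM in WT and 41.9, 34.1 and 48.7 CPM in KO livers. The groups did not overlap, and it fell with a log2 fold change of −0.63 ± 0.158 (unadjusted p = 0.00241, adjusted p = 0.193). The other accessory genes called lower were Ndufa8, Ndufa9, Ndufa10, Ndufa11, Ndufa12, Ndufa13, Ndufb7, Ndufb8, Ndufb10, Ndufc1 and Ndufs5. Ndufs5 is 1 of 3 members with AAGGTCA in the promoter window, and 20 of the 37 members with a window but without those letters were called lower too.

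Ndufaf4 had the smallest p of all members here, at 26.9, 30.5, 31.3 and 32.8 CPM in WT and 14.5, 17.95 and 14.4 CPM in KO livers given insulin. The lowest WT liver, replicate 1, was well above the highest KO liver, replicate 2. Ndufaf4 fell with a log2 fold change of −0.97 ± 0.143 (unadjusted p = 4.08e-05, adjusted p = 0.0506). Ndufa4, counted apart, was 134, 151, 120.1 and 137 CPM in WT and 98.9, 81.97 and 97.1 CPM in KO livers, without overlap, and fell with a log2 fold change of −0.56 ± 0.134 (unadjusted p = 0.00178, adjusted p = 0.173). Without WT liver insulin replicate 2, 21 members were called lower, the median was −0.34, and 1 member had an adjusted p under 0.05. All 7 core genes were called whichever library was left out, except 6 without KO liver insulin replicate 2. Of the 29 accessory genes 9 were called without that library (median −0.35), 10 without KO liver insulin replicate 4 and 12 without WT liver insulin replicate 2. Of the 8 assembly genes 3 were called without WT liver insulin replicate 1, 2 without WT liver insulin replicate 3 or 4 or KO liver insulin replicate 4, 3 when scaled by library totals and 4 with all groups in 1 fit. Scaling by library totals alone lowered the median of all genes from −0.02 to −0.11 and that of members to −0.53, with 31 members called lower. Muscle genes moved here too: of 5 muscle fibre markers tested Mylpf fell, and of 3 fast fibre markers Myh4, the sum of the 7 muscle fibre markers being 2.92, 1.08, 77.1 and 1.07 CPM in WT and 6.896, 0.714 and 0.516 CPM in KO livers, with Acta1 on top and Pvalb at 0 in KO livers. Marco, 1 of 5 macrophage markers, and Cps1, 1 of 8 hepatocyte markers, rose. Without WT liver insulin replicate 2 it was 5 of 8 hepatocyte markers, with a median of 0.33 in place of 0.23 (Cps1 at an adjusted p of 0.0283), and Tnni2, Actn3 and the adipocyte marker Cidec fell as well. Their part in the result was not tested.

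**Figure D2:**
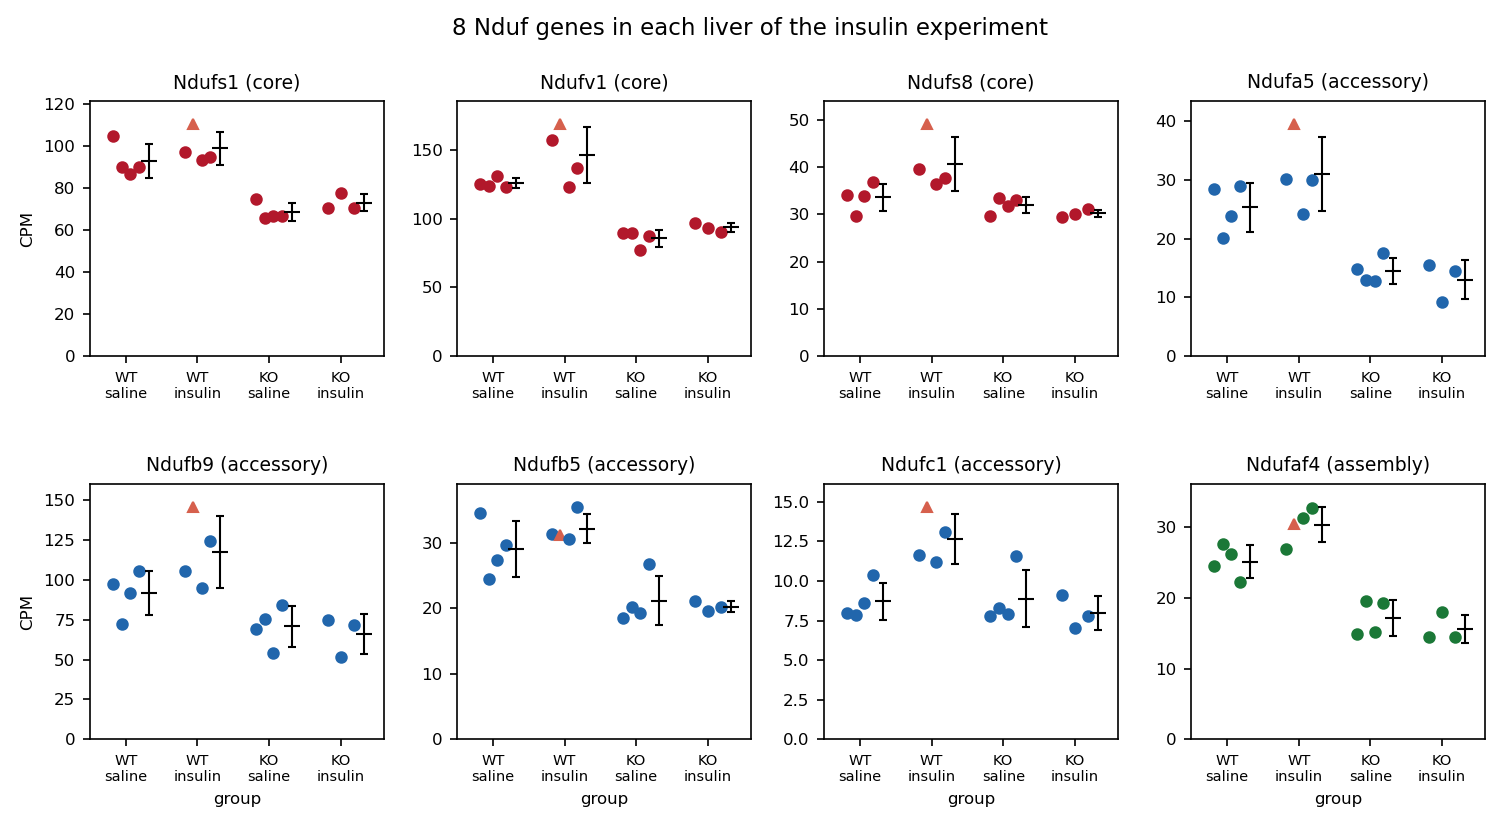
CPM of 8 members in livers of the insulin experiment: points are samples, the triangle is WT liver insulin replicate 2, and bars give the mean ± SD of each group (n = 4, and 3 for KO livers given insulin). Ndufv1 lies at 123 to 169 CPM in the 8 WT livers and 76.9 to 97.2 CPM in the 7 KO livers, while Ndufc1 is highest in WT livers given insulin.

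In WT livers, insulin against saline asks how complex I genes differ 4 h after the hormone. With insulin 44 of 46 log2 fold changes of members were above 0 (45 when scaled by library totals), with a median of 0.26 against 0.0036 over all genes. The call was made for 1 of 7 core genes (median 0.24), 6 of 29 accessory genes (median 0.28) and 2 of 8 assembly genes (median 0.22). That is 9 members called higher and 0 lower by edgeR (9 at an unadjusted p under 0.05, 8 called by DESeq2), where 8.34% of 13463 genes tested were called higher and 8.91% lower. No member passed an adjusted p of 0.05 by edgeR, where 3.16% of all genes did and where DESeq2 gave 2 members. This comparison shares the WT livers given saline, and those given insulin, with the comparisons of KO and WT livers.

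Of the core genes, Ndufv1, whose levels are given above, had a log2 fold change of 0.22 ± 0.123 (unadjusted p = 0.101, adjusted p = 0.388), and Ndufs1 of 0.09 ± 0.114 (unadjusted p = 0.435, adjusted p = 0.733). Both overlapped between saline and insulin.

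Ndufc1, a small subunit of the membrane arm, was 8.002, 7.86, 8.59 and 10.4 CPM with saline and 11.7, 14.7, 11.2 and 13.1 CPM with insulin. All livers given insulin were above all given saline, and Ndufc1 rose with a log2 fold change of 0.54 ± 0.158 (unadjusted p = 0.00562, adjusted p = 0.102). Ndufb8, of the far membrane arm, was 31.3, 23.6, 31.5 and 30.2 CPM with saline and 37.5, 43.4, 33.1 and 35.5 CPM with insulin, without overlap, saline replicate 2 being the lowest. Ndufb8 rose with a log2 fold change of 0.36 ± 0.137 (unadjusted p = 0.0245, adjusted p = 0.209), which was 0.27 (unadjusted p = 0.0703) without saline replicate 2 and 0.28 (unadjusted p = 0.05999) without insulin replicate 2. Ndufa1, a membrane arm subunit encoded on the X chromosome, was 11.9, 12.1, 14.4 and 13.5 CPM with saline and 17.7, 22.8, 12.8 and 19.6 CPM with insulin. The groups overlapped through insulin replicate 3, and its log2 fold change was 0.49 ± 0.177 (unadjusted p = 0.01704, adjusted p = 0.176), or 0.37 (unadjusted p = 0.0505) without insulin replicate 2. Ndufa8, Ndufb4, whose RefSeq window holds the longer ERR motif, and Ndufb9 were the other accessory genes called higher.

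Ndufaf2, a factor that holds the place of Ndufa12 during assembly, was 4.22, 3.38, 4.64 and 5.71 CPM with saline and 9.46, 9.42, 5.05 and 6.95 CPM with insulin. Insulin replicates 1 and 2 were the highest and replicate 3 lay within the saline range. Ndufaf2 rose with a log2 fold change of 0.78 ± 0.248 (unadjusted p = 0.00903, adjusted p = 0.131). Ndufaf4 was the other assembly gene called higher (0.27, unadjusted p = 0.0452, adjusted p = 0.272), though not without insulin replicate 2 (unadjusted p = 0.0557). A single assembly gene was called without saline replicate 1, 3 or 4 or insulin replicate 2 or 3, by DESeq2, when scaled by library totals, with the replicate number as a block and with genes of low counts kept, and 3 without insulin replicate 1. The number of members called leaned on single libraries: 2 without insulin replicate 2 (median 0.16), 21 without insulin replicate 3 (median 0.33), 5 without saline replicate 1 and 4 without saline replicate 2. For the accessory genes the number was 1 without insulin replicate 2 (median 0.16) and 16 without insulin replicate 3 (median 0.37), and the core median was 0.12 and 0.30. For the core genes it was 4 without insulin replicate 3, and 0 without insulin replicate 2 or any of the saline replicates. Of the marker lists, both adipocyte markers tested rose (Cidec and Fabp4), the 6 genes of the list summing to 35.2, 52.95, 20.6 and 15.4 CPM with saline and 113, 62.7, 79.9 and 95.1 CPM with insulin, with Cidec on top, Ucp1 at 0 in both groups and Lep at 0 with saline. Acta1, 1 of 2 muscle fibre markers tested, rose, with insulin replicate 3 the highest (77.1 CPM over the list, against 1.07 to 2.92 in the other livers given insulin). Atp2a2 and Tnnt1, 2 of 2 slow fibre markers tested, and Tat, 1 of 8 hepatocyte markers, rose, and Kdr, 1 of 6 endothelial or stellate markers, fell. The 5 macrophage markers had a median log2 fold change of −0.53. Without insulin replicate 2 it was −0.48, with 5 of 5 below 0 and 0 called. Without that library Kdr and Tnnt1 were not called, and Actn3 and Myh4 of the fast fibre markers, not tested with it, rose. Their part in the result was not tested.

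In KO livers, insulin against saline asks the same without ERRα. By edgeR 0 members were called higher and 0 lower, where 8.05% of 13684 genes tested were called higher and 9.14% lower; 0 members had an unadjusted p under 0.05, and DESeq2 called 0. No member had an adjusted p under 0.05, against 2.91% of all genes, and the smallest was 0.393. The median log2 fold change was −0.06 over members and −0.02 over all genes, and 16 members were above 0. It was above 0 without KO liver saline replicate 4 (0.0013) or without KO liver insulin replicate 2 (0.04). By class the median was 0.04 for core genes, though −0.03 when scaled by library totals, −0.07 for accessory genes and −0.17 for assembly genes. With a library left out these ranged from −0.0028 to 0.06, from −0.16 to 0.05 (above 0 without KO liver insulin replicate 2) and from −0.21 to −0.055.

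Ndufv1 was the member whose KO livers did not overlap between saline and insulin (2389 of all genes tested did not): the 3 livers given insulin were above all 4 given saline, and its log2 fold change was 0.13 ± 0.0972 (unadjusted p = 0.218, adjusted p = 0.548). For Ndufs1 the value was 0.09 ± 0.0963 (unadjusted p = 0.385, adjusted p = 0.702), with overlap. Ndufa5, by the CPM values above, overlapped between saline and insulin, and Ndufc1 was 7.795, 8.27, 7.9 and 11.6 CPM with saline and 9.13, 7.03 and 7.79 CPM with insulin, where replicate 4 given saline was the highest. Leaving out KO liver insulin replicate 1, 2 or 4 gave 1 lower, 1 higher and 2 lower members called. Among marker lists, Cps1 and Tat of 8 hepatocyte markers rose and Fgb fell, and Hba-a2 of 5 red cell markers rose.

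Whether insulin acted differently on the members in WT and KO livers was tested as an interaction over all 15 livers, where a value below 0 means a lower response in KO livers. Of 46 members 42 were below 0, with a median of −0.32 against −0.02 over all genes. By edgeR 0 were called above and 6 below (6 at an unadjusted p under 0.05, 6 called by DESeq2), where 4.04% of 14670 genes tested were called above and 4.75% below; 0 members and 0% of all genes had an adjusted p under 0.05. The calls were 1 of 7 core (Ndufs8; median −0.23), 3 of 29 accessory (Ndufc1, Ndufs5 and Ndufa7; median −0.37) and 2 of 8 assembly genes (Ndufaf4 and Ndufaf8; median −0.34). The number of accessory genes called was 1 without KO liver insulin replicate 2 or WT liver saline replicate 2, and 8 without KO liver saline replicate 3. It was 7 when scaled by library totals and 7 with the replicate number as a block. At an adjusted p under 0.05, then, a different response in WT and KO livers was shown for no member.

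Among core genes, Ndufs8 had an interaction of −0.36 ± 0.162 (unadjusted p = 0.0415, adjusted p = 0.556), or −0.26 (unadjusted p = 0.085) without WT liver insulin replicate 2, while Ndufs1 was at −0.0006 ± 0.141 (unadjusted p = 0.997, adjusted p = 0.999) and Ndufv1 at −0.09 ± 0.153 (unadjusted p = 0.567, adjusted p = 0.8995). The single core call was lost in most settings that left out a library: 0 core genes were called without KO liver saline replicate 2, 3 or 4, any KO liver insulin replicate, WT liver saline replicate 2 or 3 or WT liver insulin replicate 2. It was 0 as well with the replicate number as a block and without the filter on low counts. Without WT liver insulin replicate 2 the medians were −0.09 for core, −0.30 for accessory and −0.33 for assembly genes, and Ndufaf4 had −0.41 (unadjusted p = 0.0522), so that Ndufc1 and Ndufs5 were the members called. Ndufc1 had the lowest interaction, −0.69 ± 0.239 (unadjusted p = 0.00994, adjusted p = 0.492). Its WT livers given insulin were the highest of the 4 groups, with KO liver saline replicate 4 alone lying among them. Ndufa7 had −0.50 ± 0.213 (unadjusted p = 0.0312, adjusted p = 0.543); it was 30.4, 47.01, 30.2 and 36.2 CPM in WT and 29.6, 27.7 and 37.9 CPM in KO livers given insulin, with overlap. Its call was lost without KO liver saline replicate 2 (unadjusted p = 0.0520), KO liver insulin replicate 1 (0.0735) or 2 (0.0908), WT liver saline replicate 2 (0.0633) or WT liver insulin replicate 2 (0.0718). Ndufaf8, a partner of the hydroxylase Ndufaf5, was 8.002, 6.38, 6.399 and 8.32 CPM in WT livers given saline and 9.697, 12.3, 8.01 and 7.78 CPM in those given insulin. In KO livers it was 7.53, 7.25, 6.94 and 10.6 CPM with saline and 7.55, 6.61 and 6.87 CPM with insulin. KO liver saline replicate 4 stood above its group, and the interaction of −0.58 ± 0.268 (unadjusted p = 0.0452, adjusted p = 0.557) became −0.42 (unadjusted p = 0.116) without it. That call was lost as well without KO liver insulin replicate 2 (unadjusted p = 0.0883) or 4 (0.0780), WT liver saline replicate 2 (0.0805) or 3 (0.0834), and WT liver insulin replicate 1 (0.0621) or 2 (0.104), and it was lost by DESeq2 (0.0509) and without the filter on low counts (0.0531). No assembly gene was called without that filter, nor without KO liver saline replicate 4, KO liver insulin replicate 4 or WT liver insulin replicate 2. The number of members called was 2 without KO liver insulin replicate 2, WT liver saline replicate 2 or WT liver insulin replicate 2, 3 without KO liver saline replicate 4, and 10 without KO liver saline replicate 3 or WT liver insulin replicate 3. Csf1r and Marco, 2 of 5 macrophage markers, and Alas2, 1 of 5 red cell markers, were called above 0 (Marco alone without WT liver insulin replicate 2), and their part was not tested.

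**Figure D3:**
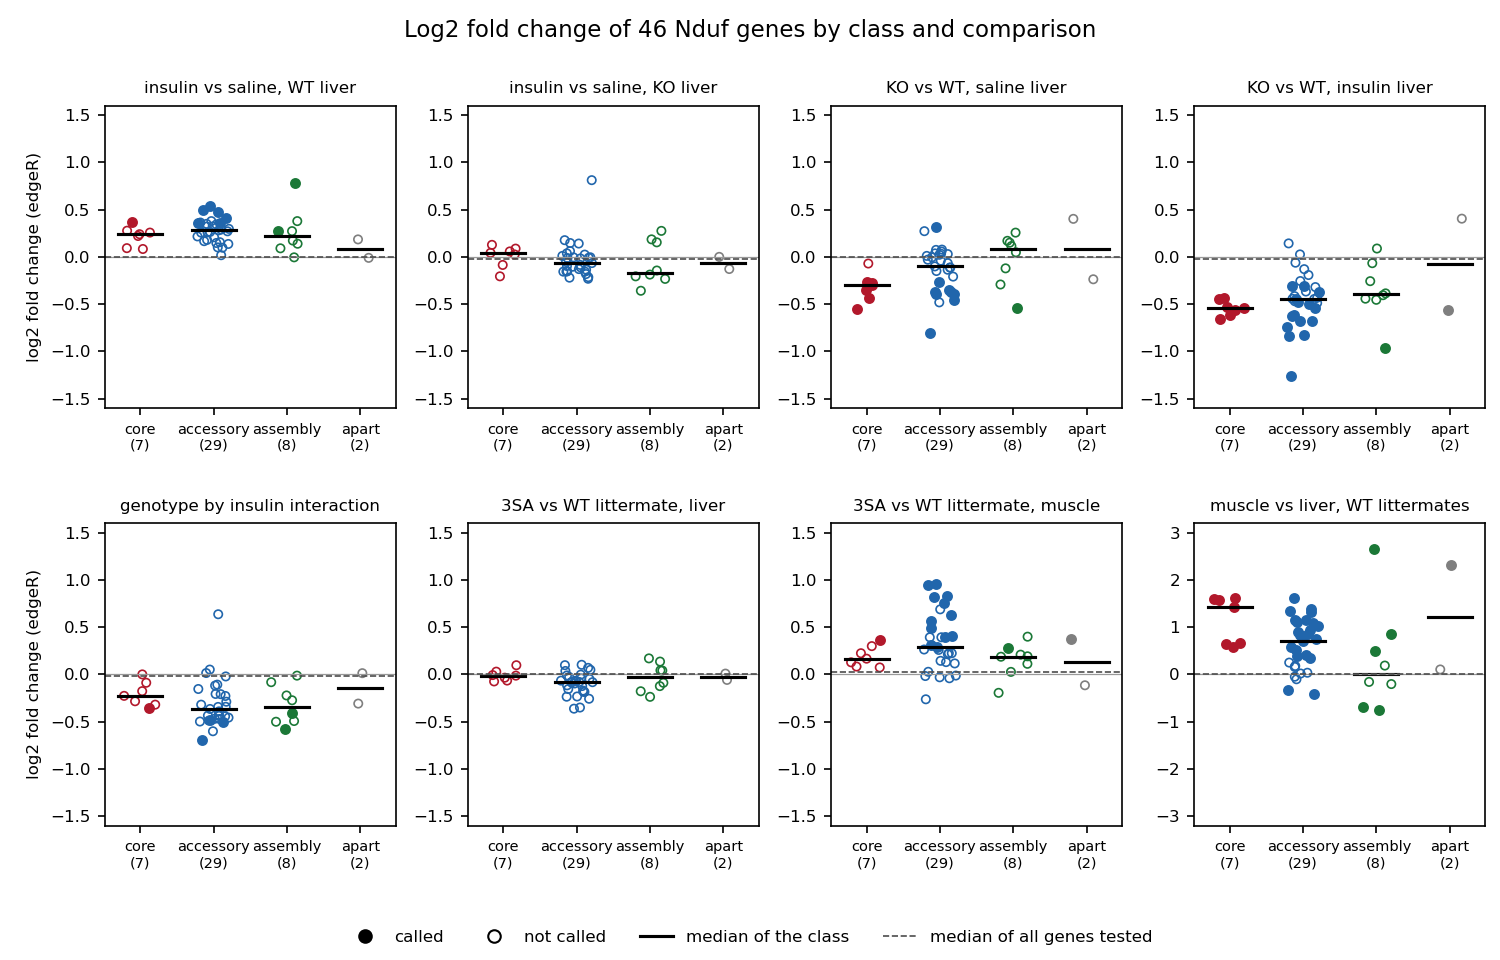
Log2 fold change of each member (edgeR) in the 8 comparisons, by class: filled points were called and open points were not, the black bar is the median of the class and the dashed line that of all genes tested. Core genes sit at −0.65 to −0.44 in KO against WT livers given insulin and at 0.58 to 1.61 in muscle against liver, where the axis is wider.

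Muscles of 3SA mice against WT littermates ask how a change in ERRα itself goes with complex I genes. In 3SA muscle 39 of 46 log2 fold changes of members were above 0 (37 when scaled by library totals), whether called or not. Called higher were 12 of 29 accessory genes (median 0.29), 1 of 7 core genes (median 0.17), 1 of 8 assembly genes (median 0.19) and Ndufa4. In all 15 members were called higher and 0 lower by edgeR (16 at an unadjusted p under 0.05, 17 called by DESeq2), where 2.78% of 14081 genes tested were called higher and 1.75% lower. The median over members was 0.22 and over all genes 0.02. By edgeR 0 members and 0% of all genes had an adjusted p under 0.05, and DESeq2 gave 5 members. The muscles did not overlap for 14 members and for 606 of all genes.

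3SA muscle replicate 1 bears on all of this. Without it 22 members were called, all higher, 4 core, 15 accessory and 2 assembly genes among them, and 16 had an adjusted p under 0.05, as had 464 of all genes. The share of all genes called then was 10.3% higher and 7.10% lower, and the median was 0.25 over members, 0.31 over core, 0.30 over accessory and 0.17 over assembly genes. The assembly median was 0.09 without 3SA muscle replicate 2 and 0.10 without 3SA muscle replicate 3. In that library the fast fibre markers, led by Myh4, summed to 140659 CPM against 53593 to 73365 in the other 3SA muscles and 69397 to 81475 in WT muscles. Its 7 mitochondrially encoded core genes, mt-Nd1 on top, summed to 98021 CPM against 35440 to 43023 and 40576 to 48240. Leaving out 3SA muscle replicate 4 gave 19 members called; there the macrophage markers summed to 85.1 CPM, with Clec4f at 0, against 25.5 to 32.0 in the other 3SA and 24.5 to 34.5 in WT muscles. Their part in the result was not tested. When scaled by library totals 9 members were called.

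Among core genes, Ndufs3 was the member called, at 167, 182, 170.4 and 159 CPM in WT and 192, 244, 252 and 185 CPM in 3SA muscles. All 3SA muscles lay above all WT muscles, and Ndufs3, most of whose transcript is matched by a pseudogene, rose with a log2 fold change of 0.36 ± 0.132 (unadjusted p = 0.02101, adjusted p = 0.9996). No core gene was called without WT littermate muscle replicate 4, 3SA muscle replicate 2 or 3SA muscle replicate 3, nor when scaled by library totals. Ndufv1 was 281, 263, 252 and 263 CPM in WT and 169, 400.3, 416 and 316 CPM in 3SA muscles. Replicate 1 was below, and the other 3SA muscles above, every WT muscle, and the log2 fold change was 0.30 ± 0.244 (unadjusted p = 0.251, adjusted p = 0.9996). Ndufs1 was 419.7, 464, 427 and 445 CPM in WT and 492, 477, 513 and 376 CPM in 3SA muscles, where replicate 4 was lowest of all and the log2 fold change was 0.08 ± 0.125 (unadjusted p = 0.525, adjusted p = 0.9996). Ndufv2 showed replicate 1 at the other extreme, with 287, 316, 284 and 309 CPM in WT and 481, 312, 333 and 269 CPM in 3SA muscles.

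Of the accessory genes that follow, Ndufa1, Ndufs6 and Ndufb3 were chosen for a small p without overlap between groups. Such a choice favours genes with little scatter. Ndufa2 was chosen for its large change. Ndufa1 was 39.8, 38.9, 38.1 and 37.03 CPM in WT and 59.2, 83.1, 83.4 and 71.01 CPM in 3SA muscles, replicate 1 being the lowest of the latter and still above every WT muscle. Ndufa1 rose with a log2 fold change of 0.95 ± 0.128 (SE, n = 4 per group; unadjusted p = 3.08e-05, adjusted p = 0.1198), or 1.05 (unadjusted p = 1.10e-07) without replicate 1. Ndufs6, a zinc-binding subunit of the NADH-oxidising module, was 61.3, 70.5, 61.9 and 71.2 CPM in WT and 124, 123, 122 and 99.5 CPM in 3SA muscles, where replicate 4 was the lowest. The groups did not overlap, and Ndufs6 rose with a log2 fold change of 0.82 ± 0.116 (unadjusted p = 4.31e-05, adjusted p = 0.1198), or 0.80 (unadjusted p = 9.40e-06) without replicate 1. Ndufb3, of the far membrane arm, was 53.1, 46.2, 45.04 and 47.9 CPM in WT and 74.8, 92.9, 96.3 and 78.5 CPM in 3SA muscles. It too separated the groups, with a log2 fold change of 0.83 ± 0.1198 (unadjusted p = 5.11e-05, adjusted p = 0.1198), or 0.90 (unadjusted p = 2.08e-06) without replicate 1. Ndufa2, of the NADH-oxidising module, was 60.2, 58.8, 49.7 and 49.2 CPM in WT and 53.8, 128, 132 and 107 CPM in 3SA muscles. Replicate 1 lay inside the WT range while the other 3SA muscles were far above it. Ndufa2 rose with a log2 fold change of 0.95 ± 0.251 (unadjusted p = 0.00383, adjusted p = 0.725), or 1.17 (unadjusted p = 8.56e-07) without replicate 1. The other accessory genes called higher were Ndufa5, Ndufa8, Ndufb2, Ndufb5, Ndufb10, Ndufc1, Ndufc2 and Ndufs5; Ndufb2 and Ndufs5 are 2 of the 3 members with an ERR motif in the promoter window, and 12 of the 37 members with a window but no such motif were called.

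Ndufaf7, a methyltransferase of the matrix, was the assembly gene called, at 15.04, 16.8, 15.3 and 15.5 CPM in WT and 20.9, 18.7, 18.7 and 17.9 CPM in 3SA muscles. Replicate 1 was the highest and no 3SA muscle overlapped a WT muscle, with a log2 fold change of 0.28 ± 0.1099 (unadjusted p = 0.0292, adjusted p = 0.9996). Without replicate 1 it was 0.24 (unadjusted p = 0.0121), under the fold of 1.2, and Ndufaf3 and Ndufaf8 were the assembly genes called. No assembly gene was called without WT littermate muscle replicate 1, 3 or 4 or 3SA muscle replicate 2, nor when scaled by library totals, without the filter on low counts, with all groups in 1 fit or with the replicate number as a block. Replicate 1 stood far from its group for 2 more assembly genes: Ndufaf4 was 114, 45.1, 44.8 and 46.8 CPM in 3SA muscles against 40.6, 50.3, 48.5 and 50.5 CPM in WT muscles. Ndufaf8 went the other way, at 1.61, 17.7, 16.6 and 15.02 CPM in 3SA muscles and 12.3, 11.4, 10.7 and 9.95 CPM in WT muscles. Neither gene was called with replicate 1 kept. Ndufa4, counted apart, was 290.4, 293, 269 and 283 CPM in WT and 319, 408, 395 and 347 CPM in 3SA muscles, without overlap, and rose with a log2 fold change of 0.37 ± 0.115 (unadjusted p = 0.00955, adjusted p = 0.903); scaled by library totals it was 0.32 (unadjusted p = 0.0908). Among markers, Hba-a2 of 5 red cell markers rose, and Tnni1 of 9 slow fibre markers and Krt19, the single cholangiocyte marker tested, fell. Without replicate 1 more markers moved: Hbb-bt in place of Hba-a2 rose, as did the macrophage marker Cd68, and Myh7 and Tnnc1 of the slow fibre markers, Dcn and Reln of 6 endothelial or stellate markers (adjusted p = 0.0332 and 0.0349) and the hepatocyte marker Cyp2e1 fell. Their part in the result was not tested.

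**Figure D4:**
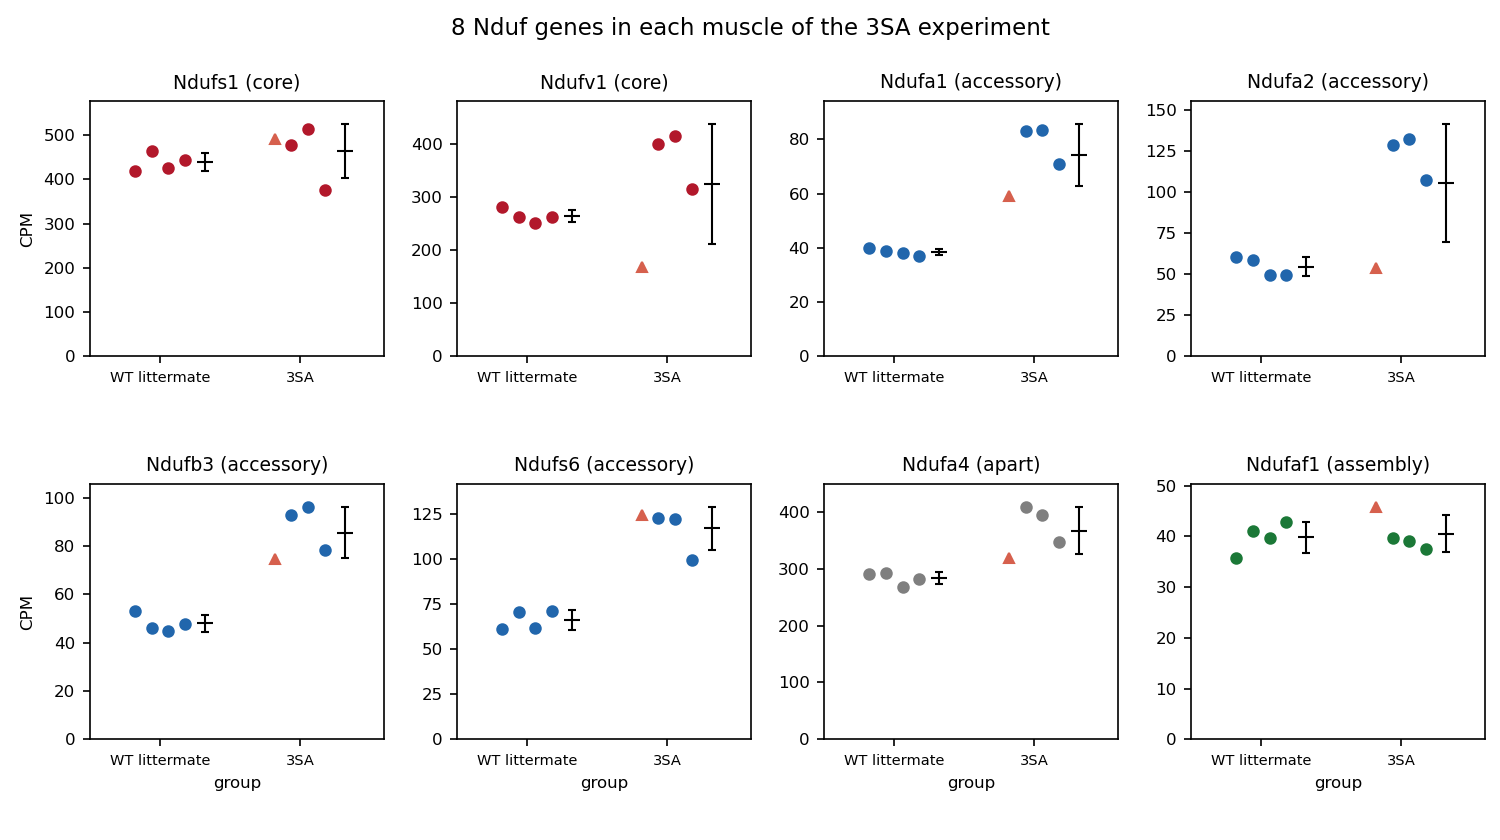
CPM of 8 members in muscles of WT littermates and 3SA mice: points are samples, the triangle is 3SA muscle replicate 1, and bars give the mean ± SD (n = 4). Ndufa1 lies at 37.0 to 39.8 CPM in WT and 59.2 to 83.4 CPM in 3SA muscles, while Ndufv1 and Ndufa2 have replicate 1 away from the other 3SA muscles.

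Livers of 3SA mice against WT littermates ask the same of the liver. By edgeR 0 members were called higher and 0 lower, where 2.5% of 13339 genes tested were called higher and 2.38% lower; 0 members had an unadjusted p under 0.05, DESeq2 called 0, and 0% of all genes had an adjusted p under 0.05. The median log2 fold change was −0.07 over members and −0.0004 over all genes, and was −0.01 for core, −0.08 for accessory and −0.02 for assembly genes. Ndufs1 was 142, 134, 133 and 127 CPM in WT and 136, 135, 156 and 119 CPM in 3SA livers, with overlap and a log2 fold change of 0.03 ± 0.0866 (unadjusted p = 0.749, adjusted p = 0.955). Ndufv1 was 178, 156, 161 and 164 CPM in WT and 175, 174, 163 and 118 CPM in 3SA livers. In both genes 3SA liver replicate 4 was the lowest of the 8 livers, and the log2 fold change of Ndufv1 was −0.07 ± 0.121 (unadjusted p = 0.599, adjusted p = 0.917). Ndufa2 was 63.03, 57.7, 47.5 and 28.5 CPM in 3SA livers and 72.97, 63.9, 55.9 and 60.3 CPM in WT livers, with replicate 4 again the lowest.

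Without 3SA liver replicate 4 the median over members was 0.04 and 30 of 46 were above 0, where 12 were with it. The median was then 0.08 for core, 0.04 for accessory and −0.0007 for assembly genes. Without 3SA liver replicate 3 the core median was −0.08. Without 3SA liver replicate 1 or 3, 1 member was called lower each time. 3SA liver replicate 4 also had the lowest hepatocyte sum, 68182 CPM where the other 3SA livers had 95239 to 108370. All 3 cholangiocyte markers fell (Krt19, the most abundant, Krt7 and Epcam), summing to 5.04, 4.403, 5.34 and 4.92 CPM in WT and 2.55, 1.79, 2.89 and 2.21 CPM in 3SA livers with none at 0, and their part was not tested. That members were called in 3SA muscle and not in 3SA liver does not show a difference between the tissues, which was not tested.

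Muscle against liver of WT littermates asks how complex I genes differ between the tissues, here with both scaled together. Core genes were higher in muscle throughout: 7 of 7, with log2 fold changes of 0.58 to 1.61 and a median of 1.41. Of the accessory genes 20 of 29 were higher and 2 lower (median 0.71), and assembly genes split, 3 higher and 2 lower of 8 (median 0.01, but −0.02 with all groups of the experiment in 1 fit). Scaled by library totals the assembly median was 0.15, with 4 called higher and 2 lower. It was −0.03 without WT littermate muscle replicate 4. Of all members 31 were called higher and 4 lower, where 42.0% of 14886 genes tested were called higher and 42.2% lower, and 38 members had an adjusted p under 0.05, as had 86.5% of all genes. The median over members was 0.66 and over all genes 0.0015; scaling by library totals alone moved the latter to 0.14 and the former to 0.79. Since most genes tested were called between the tissues, the number of members called is not a result about the members, and what follows is their direction and size. Liver and muscle did not overlap for 35 members and for 12328 of all genes.

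Ndufs1 was 153, 140, 138 and 132 CPM in liver and 411, 455, 418 and 434 CPM in muscle. The tissues lay far apart, and the log2 fold change was 1.61 ± 0.0685 (SE, n = 4 per tissue; adjusted p = 2.43e-11). Ndufs7, which carries the last iron-sulfur cluster before ubiquinone, was 74.2, 70.4, 74.3 and 71.95 CPM in liver and 212, 245, 207 and 208 CPM in muscle, with a log2 fold change of 1.58 ± 0.0682 (adjusted p = 2.83e-11). Ndufv1 had the smallest rise of the core genes, from 191, 164, 168 and 169 CPM in liver to 276, 257, 247 and 256 CPM in muscle, or 0.58 ± 0.0676 on the log2 scale (adjusted p = 1.85e-06). Ndufa12, which takes the place of Ndufaf2 late in assembly, had the highest fold of the accessory genes. It was 55.3, 44.6, 42.5 and 48.99 CPM in liver and 139, 146, 140.3 and 162 CPM in muscle, a log2 fold change of 1.62 ± 0.0855 (adjusted p = 2.91e-10). Ndufab1 was 72.01, 69.5, 72.3 and 74.4 CPM in liver and 129, 148, 136 and 143 CPM in muscle, a log2 fold change of 0.95 ± 0.0614 (adjusted p = 2.94e-09).

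The accessory genes lower in muscle were Ndufa1 and Ndufa2; the WT muscles are the same as in the comparison with 3SA muscles. Ndufa1 was 55.7, 50.3, 45.8 and 49.2 CPM in liver and 38.98, 38.1, 37.3 and 36.1 CPM in muscle. The tissues did not overlap, and it fell with a log2 fold change of −0.42 ± 0.0689 (adjusted p = 5.96e-05). Ndufa2 was 78.5, 66.9, 58.3 and 62.5 CPM in liver and 59.04, 57.6, 48.7 and 47.97 CPM in muscle, with overlap, and fell with a log2 fold change of −0.32 ± 0.0975 (adjusted p = 0.00727). Its call was lost without WT littermate liver replicate 1, at −0.25 (unadjusted p = 0.0155) and a fold under 1.2, when scaled by library totals, at −0.18 (unadjusted p = 0.0929), and with all groups in 1 fit, at −0.35 (unadjusted p = 0.175).

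Assembly genes had a wider range between tissues than core or accessory genes, but through Ndufaf5 alone. The next highest assembly gene was Ndufaf4 at 0.86, while accessory genes ran from −0.42 to 1.62. Ndufaf5, which hydroxylates Ndufs7, was 5.52, 4.89, 4.89 and 4.62 CPM in liver and 31.2, 35.5, 28.3 and 30.9 CPM in muscle, so every muscle was several times every liver. Ndufaf5 had the highest fold of all members, 2.65 ± 0.0955 on the log2 scale (adjusted p = 3.57e-12). Its partner Ndufaf8 was 19.2, 17.9, 18.2 and 18.2 CPM in liver and 12.01, 11.2, 10.5 and 9.704 CPM in muscle, lower in every muscle, and fell with −0.76 ± 0.0855 (adjusted p = 1.30e-06); with all groups in 1 fit this was −0.79 (unadjusted p = 0.0671). Ndufaf2 was 11.5, 11.3, 9.14 and 10.8 CPM in liver and 7.01, 7.098, 6.15 and 6.196 CPM in muscle and fell with −0.69 ± 0.1095 (adjusted p = 3.97e-05). Ndufaf4 and Ndufaf6 were the other assembly genes called, both higher in muscle, at 0.86 and 0.50. Of the genes counted apart, Ndufa4 was at 0.10 ± 0.0681 (unadjusted p = 0.153, adjusted p = 0.168). Ndufa4l2, known as a gene induced by low oxygen, was 1.01, 1.77, 1.999 and 1.14 CPM in liver and 9.89, 6.49, 5.61 and 7.37 CPM in muscle, with a log2 fold change of 2.32 ± 0.237 (adjusted p = 4.49e-07). Markers followed the tissue: 8 of 8 hepatocyte markers were lower in muscle and 7 of 7 muscle fibre, 5 of 5 fast fibre and 9 of 9 slow fibre markers higher. Adipocyte markers were higher (5 of 5 tested), macrophage (5 of 5), red cell (5 of 5) and cholangiocyte markers (3 of 3) lower, and endothelial or stellate markers went both ways (3 higher and 2 lower of 6).

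**Figure D5:**
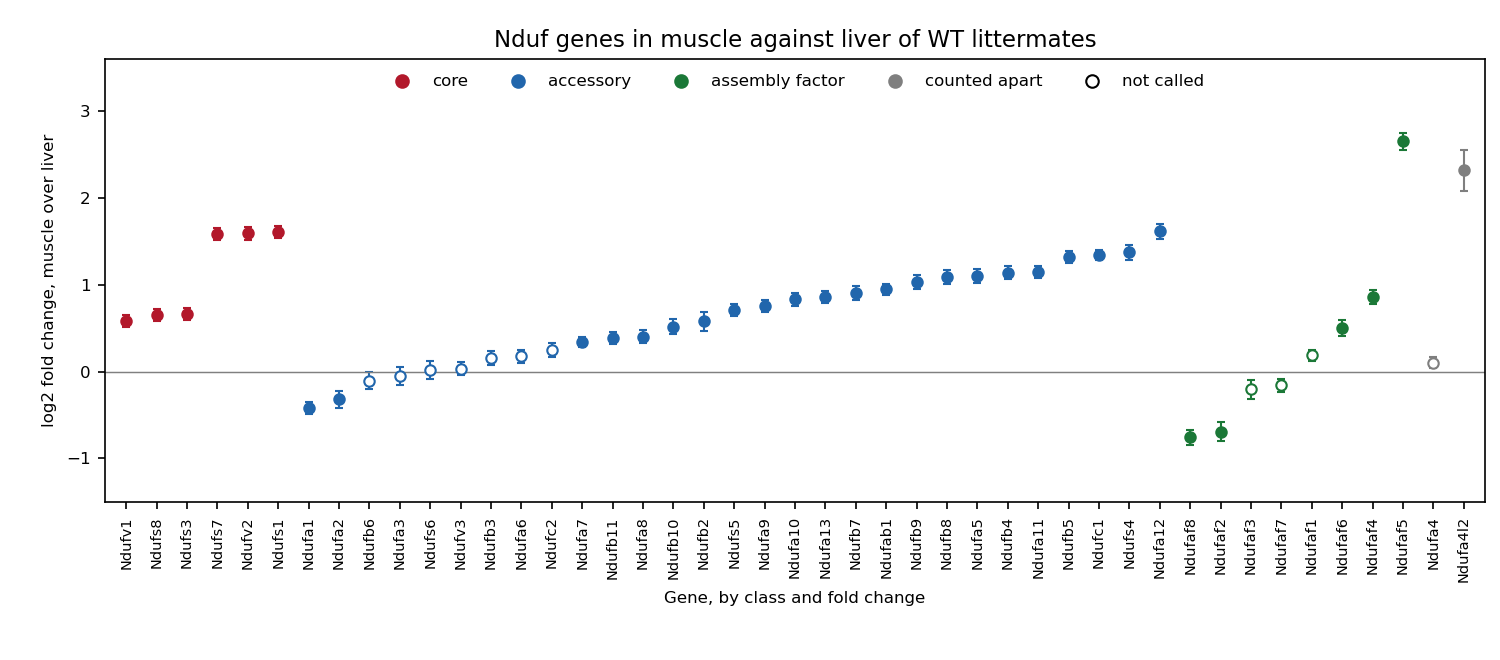
Log2 fold change of muscle over liver in WT littermates for 45 of the 46 members by class (edgeR), with bars of ± 1 SE; filled points were called and open points were not. The core genes shown lie between 0.58 and 1.61, and the 8 assembly genes between −0.76 and 2.65.

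The core of complex I has 7 more subunits made from mitochondrial DNA. Whether these differed from the nuclear core in any comparison was not tested. In KO against WT livers given saline 3 of the 7 fell (mt-Nd4l, mt-Nd5 and mt-Nd6; median −0.26), and under insulin 0 were called by edgeR (0 at an unadjusted p under 0.05; median −0.07), where all 7 nuclear core genes fell. Without WT liver insulin replicate 2 mt-Nd1, mt-Nd2 and mt-Nd4 fell there (median −0.24). With insulin in WT livers their median was −0.19 with 0 called (0.06 without replicate 2), and in KO livers 0.05 with 0 called; the interaction had a median of 0.20 and 0 calls (−0.02 without that library), with 0 of the 7 at an unadjusted p under 0.05 in each of these. In 3SA muscle mt-Nd3 rose (their median 0.29); without replicate 1 mt-Nd3 still rose, mt-Nd6 fell and the median was below 0, at −0.19. In 3SA liver 0 were called (median −0.08), and in muscle against liver 7 of 7 were higher (median 1.36). As the sums in the insulin livers show, they stood at 21473, 9079, 19183 and 20422 CPM in WT livers given insulin, where replicate 2 was the lowest while it was the highest for nuclear core genes.

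A further 10 assembly factors have names that do not start with Nduf. Of these Dmac2 and Ecsit fell in KO livers given saline (median over the list 0.06), and Dmac2, Ecsit, Foxred1, Timmdc1 and Tmem70 fell in KO livers given insulin (median −0.32). Insulin in WT livers, insulin in KO livers, 3SA muscle and 3SA liver gave 0 calls by edgeR and 0 at an unadjusted p under 0.05, with medians of 0.06, −0.03, 0.03 and −0.0031, and the interaction called Tmem70 alone (median −0.11). Without WT liver insulin replicate 2 Acad9 fell with insulin in WT livers and 3 of these factors in KO livers given insulin, and without 3SA muscle replicate 1 Dmac1 rose in 3SA muscle, where 9 of 10 were then above 0, 5 had an unadjusted p under 0.05 and the median was 0.19. In muscle against liver 4 were higher and 3 lower (median 0.03), where 42.0% of all genes tested were called higher and 42.2% lower.

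Beside the 46 members stand the other complexes of the chain. In KO against WT livers given saline 3 of 4 complex II genes, 5 of 9 of complex III and 5 of 12 of complex IV fell, and of 17 ATP synthase genes 6 fell and 1 rose. Under insulin 3 of 4, 8 of 9, 11 of 12 and 15 of 17 fell, with medians of −0.56, −0.63, −0.70 and −0.71 beside −0.45 for the Nduf members; without WT liver insulin replicate 2 it was 4 of 4, 8 of 9, 11 of 11 and 15 of 17. With insulin in WT livers 1 of 4, 5 of 9, 7 of 12 and 8 of 17 rose (1 of 4, 1 of 9, 1 of 12 and 3 of 17 without replicate 2), and in KO livers 3 ATP synthase genes fell and no gene of complexes II to IV was called by edgeR (1 of complex IV had an unadjusted p under 0.05). The interaction was called below 0 for 1 of 4, 4 of 9, 4 of 13 and 9 of 17 (1 of 4, 2 of 9, 4 of 13 and 7 of 17 without that library). In 3SA muscle 0 of 4, 1 of 9, 3 of 15 and 2 of 17 rose, with medians of 0.22, 0.23, 0.22 and 0.18 beside 0.22 for the Nduf members, and without replicate 1 it was 2 of 4, 5 of 9, 9 of 15 and 7 of 17 (medians 0.26, 0.31, 0.33 and 0.13 beside 0.25). In 3SA liver Atp5s rose alone. In muscle against liver 3 of 4, 7 of 9, 10 of 15 and 14 of 17 were higher and 1, 2, 3 and 2 lower.

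Of 9 regulators of such genes, Esrra rose with insulin in WT livers (0.67, unadjusted p = 0.00754, adjusted p = 0.122) and so did Ppargc1a, the gene of its coactivator (1.22, unadjusted p = 0.00437, adjusted p = 0.0897). For Esrra every WT liver given insulin was above every WT liver given saline, replicate 2 by far the most; without it the value was 0.43 (unadjusted p = 0.0163), and Ppargc1b was called higher too. In KO livers given saline Ppargc1a rose (0.95, unadjusted p = 0.0368, adjusted p = 0.368) and, besides Esrra, no other regulator was called there or under insulin. Insulin in KO livers and both 3SA comparisons called 0 of 9 by edgeR (1 regulator had an unadjusted p under 0.05 in KO livers and 0 in 3SA tissues), but in 3SA muscle without replicate 1 Esrra rose (0.60, unadjusted p = 0.000791, adjusted p = 0.0373) and Esrrg and Ppargc1a fell. The interaction called Esrra alone (−1.65, unadjusted p = 0.00114, adjusted p = 0.422), a gene near 0 in KO livers. In muscle against liver 6 were higher, Esrra (1.53), Esrrb, Esrrg (4.14), Ppargc1a (2.26), Ppargc1b and Nrf1, and 2 lower, Gabpa and Yy1.

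Many Nduf transcripts are short, and folds went with length in some comparisons. The members were split at their median length of 921 bases into 23 short and 23 long, and all genes tested at the same length. In 3SA muscle the median log2 fold change was 0.37 for short and 0.17 for long members, beside 0.14 and 0.02 for short and long genes among all tested, and 11 short and 4 long members were called higher (9.63 and 2.15% of all genes). With insulin in WT livers it was 0.30 and 0.22 for members beside 0.21 and −0.01 for all genes. In KO against WT livers given insulin it was −0.45 and −0.45 beside −0.17 and −0.01, and with saline −0.03 and −0.21 beside 0.15 and −0.0039. For the interaction the values were −0.43 and −0.21 beside −0.33 and 0.0003, so short genes in general had a lower interaction. In muscle against liver members had 0.34 and 0.86 beside −0.16 and 0.02. The 7 core transcripts range from 758 to 2590 bases, and the part of length in any of these results was not tested.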

How the data were processed

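RNA of 31 livers and muscles was measured by paired-end sequencing of NEBNext Ultra libraries. The authors used STAR both to align the reads to mm10 (GRCm38) and to count them, and deposited raw counts per gene without normalization; their own tests used DESeq2. Read filters and strand settings are not stated. Groups and replicate numbers came from the sample labels.

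Here edgeR 4.0.16 (R 4.3.3) gave the fold changes, their errors and the p-values: counts were filtered with filterByExpr, scaled with TMM and tested by quasi-likelihood, each comparison on its own groups. A gene was called where the unadjusted p was under 0.05 and the fold was 1.2 or more, as in the study's methods, and Benjamini-Hochberg adjusted p-values covered all genes tested. A prior count of 2 was used for log2 CPM. DESeq2 1.42.0 was the alternative test. Overlaps between genes came from the exons of each gene's main transcript and near-identical copies from BLAST 2.17.0. The tests were tried on simulated data first.

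The members and lists were chosen with earlier results of these data known. The lists are the other complexes of the chain, the mitochondrially encoded core, other assembly factors, regulators, and markers of hepatocytes, cholangiocytes, macrophages, endothelial or stellate cells, red cells, adipocytes, muscle fibres, fast fibres and slow fibres. Named in full are Ndufs1 and Ndufv1 always, Ndufa4, Ndufa4l2 and Ndufab1 where called, and among the members called in a comparison the 3 with the smallest p whose groups did not overlap, the 3 with the largest change and those opposite to most. 1 member that this rule would name is not reported here, and it is left out of figures that label genes. Other members and list genes named were chosen after their values were seen. Alternatives changed the test, the scaling, the filter, the groups in the fit and a block by replicate number, and left out each library in turn. Medians without a library, other lists and single genes without WT liver insulin replicate 2 or 3SA muscle replicate 1, and the split by length were chosen after the data were seen.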

Additional observations from a re-analysis of the deposited data

Results flagged for a closer look

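In groups of 4, a sample was singled out where its gap to the nearest other sample, as a share of the group's range, passed the limit of Dixon's test. Of 86 groups of values tested, 13 had such a sample, and chance gives about 1 in 20 groups where groups are independent. These groups share libraries and their genes were mostly named from these data, so the 13 cannot be weighed against that rate. In WT livers given insulin, replicate 2 stood out for Esrra (96.5 CPM, the others 53.7 to 59.0) and for the share of counts from mitochondrial genes (1.88%, the others 3.88 to 4.17%), and replicate 4 for Ndufb5 (35.4 CPM, the others 30.5 to 31.3). In WT livers given saline it was replicate 2 for Ndufb8 (23.6 CPM, the others 30.2 to 31.5). In KO livers given saline replicate 4 stood out for Ndufaf8 (10.6 CPM, the others 6.94 to 7.53) and Ndufc1 (11.6 CPM, the others 7.80 to 8.27), replicate 1 for Ndufs1 (74.8 CPM, the others 65.9 to 66.9) and replicate 3 for the mitochondrial share (3.91%, the others 3.16 to 3.21%).

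In 3SA muscles replicate 1 stood out for the mitochondrial share (19.3%, the others 9.15 to 9.85%) and for the share of counts from Nduf members (0.474%, the others 0.732 to 0.764%), and replicate 4 for Ndufs6 (99.5 CPM, the others 122.3 to 124.4). In 3SA livers replicate 4 had a low share of Nduf counts (0.246%, the others 0.309 to 0.313%), and in muscles of WT littermates replicate 2 was high for Ndufs7 (249.7 CPM, the others 211.2 to 216.1).

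The response to insulin differed between KO and WT livers at an unadjusted p under 0.05 for 6 members, with log2 differences of −0.69 for Ndufc1, −0.58 for Ndufaf8, −0.50 for Ndufa7, −0.48 for Ndufs5, −0.41 for Ndufaf4 and −0.36 for Ndufs8. By edgeR no adjusted p among them was under 0.05. DESeq2 also called 6 members, not all of them the same: Ndufaf8 was not called by it.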

How the results depend on the processing

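For 4 comparisons the number of members called by edgeR, 9 with insulin in WT livers, 16 and 24 in KO against WT livers given saline and insulin, and 15 in 3SA against WT muscles, became 0 at an adjusted p under 0.05, as did the 6 of the interaction. DESeq2 called 8, 16, 23, 17 and 6. Scaled by library totals alone, 10 members were called for the interaction and 9 in 3SA muscle, and the median of muscle against liver was 0.79 in place of 0.66. With each library left out in turn, the number called ranged from 2 to 21 with insulin in WT livers, 0 to 2 with insulin in KO livers, 10 to 17 and 17 to 29 in KO against WT livers given saline and insulin, 2 to 10 for the interaction, 0 to 1 in 3SA livers and 11 to 22 in 3SA muscles. In muscle against liver, where 35 were called, no setting moved the number outside 30 to 38. The cause was not tested. No named fold that was called changed sign under any setting run.

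With the replicate number as a block, 5 members were called with insulin in WT livers, 2 in 3SA livers, 9 for the interaction and 11 in 3SA muscles. Whether equal numbers mark paired samples is not known from the labels. After the mean of each group was taken away, samples with the same number correlated over genes at −0.22 to 0.33. These values neither show nor exclude a pairing, for example of liver and muscle from the same mouse.

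At these depths the members' counts are high in most samples, and precision rests on 3 or 4 mice per group. Ndufb2 and Ndufa4l2 had means of 0.674 to 1.19 and 0.509 to 0.679 CPM in the groups of the insulin experiment, so their folds there are loose.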

Other observations

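The 5 Nduf genes of other types belong to no comparison above. Ndufb1-ps, listed as a non-coding RNA and absent from the table of the insulin experiment, had 31.8, 28.8, 27.3 and 30.4 CPM in livers of WT littermates and 31.6, 35.4, 32.0 and 22.6 CPM in 3SA livers. In muscles of WT littermates it had 49.96, 53.3, 46.03 and 45.1 CPM, and in 3SA muscles 57.4, 63.1, 59.2 and 45.2 CPM. These levels are as high as those of several members. The pseudogenes Ndufa11b, Ndufab1-ps, Ndufb4c and Ndufs6b had at most 0.7 CPM in any sample.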
